A study of Mus musculus with 8 samples.

Results

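The immediate-early AP-1 genes described here are 10 transcripts: Fos, Fosb and Fosl1 of the Fos family, Jun, Junb and Jund of the Jun family, the stress-responsive bZIP factor Atf3, the zinc finger factor Egr1, and the early response genes Ier2 and Ier3. They were chosen by name from 24787 genes listed across the deposited tables, with no measured value in the rule. Earlier results of these data were known when they were chosen. The libraries came from 8 tumors of MC38, a mouse colon carcinoma line, taken 24 h after an injection of saline (3 tumors), free R848 (3 tumors) or medium R848-BPD (2 tumors). R848 is a small-molecule agonist of the innate receptors TLR7 and TLR8, and medium R848-BPD is a bottlebrush polymer that carries R848 on a linker of intermediate release rate. Each tumor was from its own mouse, was dissociated with an enzyme kit, and was separated into CD45+ and CD45- cells that were remixed with CD45+ cells in excess and loaded on Seq-Well arrays, which capture the RNA of single cells in wells. All 3 groups shared the tumor line, the dissociation and the remixing, so no library shows these genes in undissociated tissue.

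Proteins of the Fos, Jun and ATF families pair through a leucine zipper to form AP-1, a dimer that binds the TGACTCA class of sites. Their genes are held ready for transcription and respond within minutes to growth factors, cytokines, Toll-like receptor ligands and stress, through MAP kinases acting on SRF, ELK and CREB/ATF factors at the promoter. Their RNAs are short-lived. Warm enzymatic dissociation of a solid tissue is also known to induce them, so a level in a cell suspension can date from the animal or from the tube, and these data, taken at a single time after dissociation, cannot tell these origins apart for any level.

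The promoters of 4 members are shown as examples from the genes whose levels in classes and treatments are described further on. The sequences are the 250 bases before the RefSeq start site, read 5′ to 3′ on the gene's strand from build GRCm38.p6: chr1:191183334-191183583 (minus strand) for Atf3, chr4:95052223-95052472 (minus strand) for Jun, chr12:85473640-85473889 (plus strand) for Fos and chr7:19310046-19310295 (minus strand) for Fosb. In the GENCODE annotation of the same assembly, the windows of Jun, Fos and Fosb lie at the 5′ end of the gene, and the Atf3 window lies inside the annotated gene, which runs from 191170296 to 191218039 on chromosome 1. Capitals mark the motifs named below.
Atf3: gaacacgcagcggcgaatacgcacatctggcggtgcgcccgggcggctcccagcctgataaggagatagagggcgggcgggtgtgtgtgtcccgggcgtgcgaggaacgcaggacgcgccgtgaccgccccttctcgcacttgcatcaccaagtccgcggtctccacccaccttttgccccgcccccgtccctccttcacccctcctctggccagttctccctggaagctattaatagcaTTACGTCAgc
Jun: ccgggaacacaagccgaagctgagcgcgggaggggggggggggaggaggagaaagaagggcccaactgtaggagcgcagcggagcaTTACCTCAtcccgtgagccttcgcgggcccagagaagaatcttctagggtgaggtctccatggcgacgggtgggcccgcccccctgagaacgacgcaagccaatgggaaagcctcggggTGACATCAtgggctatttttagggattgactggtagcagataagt
Fos: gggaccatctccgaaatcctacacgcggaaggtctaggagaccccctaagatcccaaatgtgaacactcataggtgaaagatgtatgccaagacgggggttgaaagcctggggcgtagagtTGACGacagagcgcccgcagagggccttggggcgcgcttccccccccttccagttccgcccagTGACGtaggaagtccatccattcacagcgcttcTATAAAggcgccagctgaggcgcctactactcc
Fosb: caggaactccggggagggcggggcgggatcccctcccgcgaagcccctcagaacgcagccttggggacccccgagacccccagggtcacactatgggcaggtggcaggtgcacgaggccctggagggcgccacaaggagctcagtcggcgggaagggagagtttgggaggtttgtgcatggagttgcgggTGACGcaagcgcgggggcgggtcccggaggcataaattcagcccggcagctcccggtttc
The RefSeq promoter set searched left out part of the genome. It held promoters, matched by symbol, for 7 of the 10 members and none for Fosl1, Egr1 and Ier2. Motifs were searched on both strands. The CREB/ATF core TGACG, which 17.8% of 32851 promoters of this length hold, was found in Fos at -129 and -66, in Fosb at -60, in Junb at -106, and in Atf3 on the reverse strand at -7, where it overlaps TTACGTCA at -10 (0.447% of promoters). Jun held the AP-1-like variants TGACATCA at -45 (2.93% of promoters) and TTACCTCA at -164 (0.728%). Fos held TATAAA at -33 (12.4%). The full TGACGTCA (1.55%) and the AP-1 sites TGACTCA or TGAGTCA (4.46%) were in none of the 7 windows. These matches are letters in a window and were not tested for binding.

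After the filters, 9886 of 10791 barcodes were kept. The deposited tables held 5867590 to 12422614 UMIs (unique molecular identifiers, 1 per captured transcript) per tumor, and the median kept cell had 3247 to 6928 UMIs. Cells were put in classes by marker genes that include no member: 5664 monocyte/macrophage-like, 405 DC-like (dendritic cells), 426 T-like, 1007 NK-like and 1298 MC38-like cells, and a clustering of the same cells put 86.2% to 95.5% of each of these in the same class. All 8 MC38 markers were listed, but 4 of them were in at least 1% of cells, so that class rests on few genes. Counts were summed per tumor and class. The smallest sums were DC-like cells of saline tumor 2 (10 cells), T-like cells of medium R848-BPD tumor 2 (23 cells) and NK-like cells of medium R848-BPD tumor 2 (50 cells). Of the kept cells, 59 carried a barcode that also occurred in another library; 23 barcodes were shared in all, and leaving these cells out changed no count of members called. Levels are given as counts per 1000000 UMIs of a class in a tumor (CPM), with TMM factors set among the tumors of a class. Between classes these levels therefore follow total UMIs, not the TMM of the joint fit given further on, and a sum cannot tell fewer positive cells from less RNA per cell.

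Orders of level given for the members are among the 5 tested classes, and the values of 3 smaller classes, some of them higher, follow further on. Among the 5, Fos, the leading partner of Jun proteins in AP-1, was most abundant in monocyte/macrophage-like cells, where the 8 tumors ran from 957 to 1538 CPM with a mean of 1295 ± 179 CPM (SD, n = 8 tumors). It averaged 602 ± 100 CPM in MC38-like cells, 439 ± 177 CPM in DC-like cells, 142 ± 62.8 CPM in T-like cells and 93.3 ± 32.7 CPM in NK-like cells. The monocyte/macrophage-like range lay above those of the other 4 classes, and the T-like and NK-like ranges overlapped. Fosb, a close paralog of Fos, kept a similar order, with 569 ± 189 CPM in monocyte/macrophage-like cells, 319 ± 105 in MC38-like cells, 311 ± 209 in DC-like cells, 175 ± 85.8 in T-like cells and 120 ± 45.5 in NK-like cells. The monocyte/macrophage-like range of Fosb (296 to 873 CPM) overlapped those of MC38-like (191 to 531), DC-like (24.7 to 620) and T-like cells (64.7 to 346), and the MC38-like and DC-like ranges overlapped as well. Fosl1, which encodes Fra-1 and lacks the transactivation domain of Fos, was highest of the 5 in MC38-like cells, at 206 ± 25.2 CPM (171 to 249 CPM), against 15.7 ± 7.54 CPM in monocyte/macrophage-like cells and 4.60 to 7.61 CPM on average in the other 3 classes.

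Among the Jun family, Jun itself was highest of the 5 classes in MC38-like cells, at 1333 to 2125 CPM and a mean of 1766 ± 247 CPM. No tumor of any other class among the 5 came above 960 CPM. Junb, which is often antagonistic to Jun, was spread more evenly, at 1080 ± 261 CPM in monocyte/macrophage-like cells, 1087 ± 128 in DC-like cells, 926 ± 289 in T-like cells, 925 ± 135 in MC38-like cells and 457 ± 67.5 in NK-like cells. The ranges of the first 4 overlapped and NK-like cells lay below all of them. Jund, the member expressed most steadily in resting cells, was highest of the 5 in T-like cells (455 ± 90.0 CPM), then NK-like cells (326 ± 170), with overlapping ranges, and at 181.5 to 211 CPM on average in the other 3 classes.

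Atf3, a stress-induced repressor and Jun partner, was highest of the 5 in monocyte/macrophage-like cells, at 655 ± 133 CPM (496 to 871 CPM). It averaged 215 ± 91.1 CPM in DC-like cells and 45.7 ± 15.03 CPM in MC38-like cells. Egr1, a zinc finger factor that is induced with Fos through SRF but is no AP-1 subunit, was highest of the 5 classes in MC38-like cells at 430 ± 112 CPM (305 to 643 CPM), against 194 ± 92.6 CPM (104 to 363 CPM) in monocyte/macrophage-like cells, so these ranges overlapped. Ier2, a small nuclear early response protein, was at 319 ± 41.2 CPM in MC38-like cells and 133 to 222 CPM on average in the other 4 classes. Ier3, an early gene linked to cell survival, was at 600 ± 148 CPM in MC38-like cells and 428 ± 177 CPM in monocyte/macrophage-like cells, with overlapping ranges, and at 33.6 to 76.9 CPM on average in the other 3 classes.

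**Figure D1:**
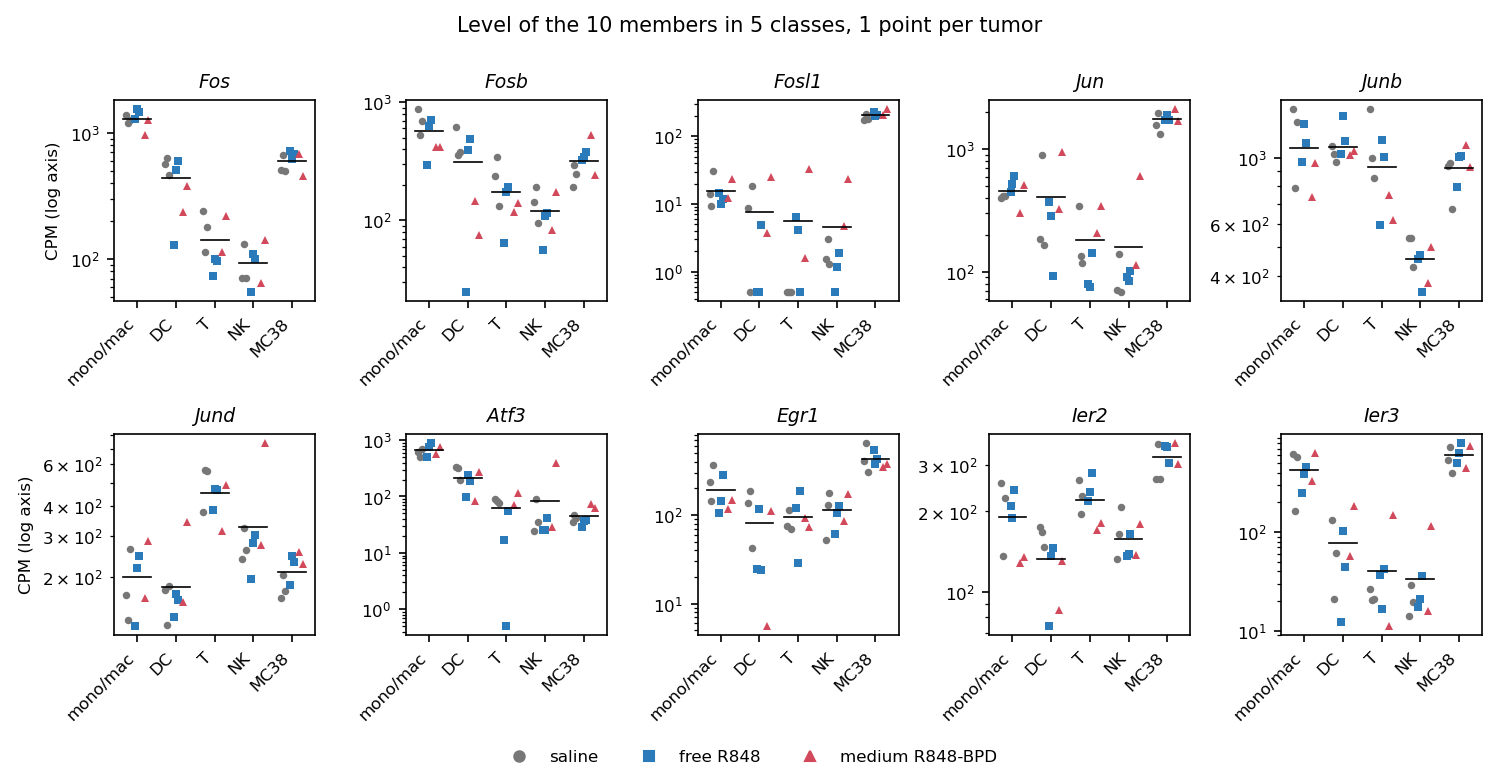
Level of each member in 5 classes. Each point is the CPM of 1 tumor on a log axis (grey circles saline, blue squares free R848, red triangles medium R848-BPD), the bar is the mean of 8 tumors, and a level of 0 is drawn at 0.5 CPM. By their means in these 5 classes, Fos, Fosb and Atf3 were highest in monocyte/macrophage-like cells, and Fosl1, Jun and Egr1 in MC38-like cells.

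In a fit over all 40 sums of tumor and class, with tumor as a block, all 10 members differed between the 5 classes, as did 95.2% of the 10813 genes tested. Set against monocyte/macrophage-like cells, 6 of 10 members passed the test in DC-like cells, where 47.9% of all genes did. The same comparison called 9 members in T-like cells (59% of all genes), 9 in NK-like cells (68.8%) and 8 in MC38-like cells (81.3%). Most genes differ in level between these classes, so the counts are read against those shares and call nothing particular to the members. Fos was lower than in monocyte/macrophage-like cells by log2 fold changes of -1.72 ± 0.19 (SE) in MC38-like, -1.77 ± 0.20 in DC-like, -4.20 ± 0.22 in NK-like and -3.69 ± 0.22 in T-like cells, with adjusted p-values of 1.04e-09 or lower. Fosl1 was higher in MC38-like cells by 3.18 ± 0.19, Jun by 1.30 ± 0.26 and Egr1 by 0.60 ± 0.26, and Atf3 was lower there by -4.55 ± 0.33.

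The scaling between classes decided the direction of several smaller differences. The median gene of MC38-like against monocyte/macrophage-like cells lay at -0.07 with TMM, 0.20 with RLE size factors and 0.57 with total UMIs alone. Jund in MC38-like cells went from -0.52 with TMM (adjusted p = 0.00143) to -0.23 with RLE (adjusted p = 0.126) and 0.14 with total UMIs (adjusted p = 0.337). Ier3 there went from -0.08 to 0.21 and 0.58, Ier2 in T-like cells from -0.20 to 0.24 with total UMIs, and Junb in DC-like cells from -0.12 to 0.03. Calls moved as well: from TMM to total UMIs, Junb lost its call in MC38-like cells (-0.85, adjusted p = 4.4e-07, to -0.19, adjusted p = 0.14) and in T-like cells (-0.68, adjusted p = 5.15e-05, to -0.24, adjusted p = 0.0998). Ier2 gained one in MC38-like cells (0.15, adjusted p = 0.277, to 0.80, adjusted p = 4.6e-07) and lost one in NK-like cells (-0.61 to -0.26, adjusted p = 0.0766). With total UMIs the numbers of members called were 8 in MC38-like, 9 in NK-like, 8 in T-like and 6 in DC-like cells. The signs given above for Fos, Fosb, Atf3, Fosl1, Jun and Egr1 were the same under all 3 scalings, as was the higher Jund in T-like cells.

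RNA set free by other cells can enter a well, and in several tumors the lymphoid levels of Fos, Atf3 and Ier3 were no higher than such RNA would give. The summed monocyte/macrophage markers in NK-like cells were at 5.65% ± 0.894 (SD, n = 8) of their level in monocyte/macrophage-like cells of the same tumor, and at 6.22% ± 1.44 in T-like cells. If the members were carried over at that share, NK-like cells would hold on average 72.4 CPM of Fos, 36.2 CPM of Atf3 and 23.5 CPM of Ier3, against measured means of 93.3, 83.7 and 33.6 CPM. The last 2 means rest on medium R848-BPD tumor 2: over the other 7 tumors Atf3 averaged 38.8 CPM and Ier3 21.95 CPM, beside carried values of 35.6 and 21.9 CPM. The NK-like level was at or under this value in 3 of 8 tumors for Fos, 6 of 8 for Atf3 and 4 of 8 for Ier3. In T-like cells it was at or under it in 2 tumors for Fos, 2 for Atf3 and 4 for Ier3. Levels at or under that share cannot be told apart from carried RNA here, and the part of carried RNA was not tested. Jund, Junb and Ier2 were clear of it in both classes, where the carried share came to a median of 3.17% to 12.9% of the measured level. RNA of MC38-like cells can be carried over as well, and adding its share, set by the MC38 markers, put Jun of T-like cells at or under the carried value in 2 of 8 tumors. In NK-like cells Jun was above it in all 8, but the carried value came to a median of 77.7% of the level. Fos was then at or under it in 4 tumors in NK-like cells and 2 in T-like cells, and Ier3 in 6 and 5. In MC38-like cells the share of monocyte/macrophage markers was 1.37% ± 0.866, and it came to under 8% of the level of 9 members in every tumor and to 5.85% to 34.8% of that of Atf3.

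Outside the 5 tested classes, the sums were small and are given as values. Clustering put 29.3% of the 174 fibroblast-like cells in the same class, and 39 of them lay near the limits of the gate, so that class is uncertain. Fibroblast-like cells (10 to 46 cells in each of 8 tumors) held 1770 to 4275 CPM of Jun, 1385 to 2234 CPM of Fos, 497 to 1911 CPM of Fosb and 543 to 1608 CPM of Egr1. The medians, 2359 CPM of Jun, 1855 of Fos, 876 of Fosb and 1188 of Egr1, were above the highest tumor of all 5 tested classes. Neutrophil-like cells reached 10 cells in 3 tumors, with 787 to 2701 CPM of Egr1, 728 to 2491 CPM of Ier3 and 497 to 1298 CPM of Atf3. Osteoclast-like cells reached 10 cells in 2 tumors, where Atf3 was at 0 CPM and 29.4 CPM.

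To set depth aside, each cell was thinned to 1000 UMIs. Per 1000 UMIs, the members together made up 5.67 ± 0.996 UMIs (SD, n = 8 tumors) in MC38-like cells, 5.33 ± 0.905 in monocyte/macrophage-like cells, 2.85 ± 0.760 in DC-like cells, 2.44 ± 0.409 in T-like cells and 1.65 ± 0.452 in NK-like cells. At least 3 of the 10 members were detected in 60.6% of monocyte/macrophage-like cells, 51.4% of MC38-like cells, 26.3% of DC-like cells, 23.7% of T-like cells and 11.3% of NK-like cells. Thinning left out 65 of the 8800 cells, which had fewer UMIs. Across cells of a tumor, members went together weakly. In MC38-like cells the mean correlation over 8 tumors was 0.36 for Fos with Jun, 0.34 for Fos with Egr1 and 0.33 for Fos with Fosb, and over all 45 pairs of members its median was 0.13. The median was 0.08 in monocyte/macrophage-like cells and 0.01 to 0.03 in the other 3 classes. These are descriptions from sparse counts of cells that share a library.

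Whether a tumor was high or low as a whole was read from the deviations of log2 CPM from each class mean. Class took 73.9% of a member's spread over the 40 sums (median of 10 members), against 61.1% for the median of all genes. Of the spread that class left, 37.6% was shared by all classes of a tumor (treatment and tumor within treatment together), against 22.8% for the median of all genes and 20% expected from its degrees of freedom. It ran from 19.9% for Egr1 and 26.3% for Ier2 to 49.0% for Jund and 49.4% for Ier3. The part particular to a class under a treatment was 22.9% (all genes 21.6%), and the part particular to a class in a tumor was 39.3% (all genes 52.7%). The shared part rested in good measure on medium R848-BPD tumor 2, since without that tumor its median was 25.8%.

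**Figure D2:**
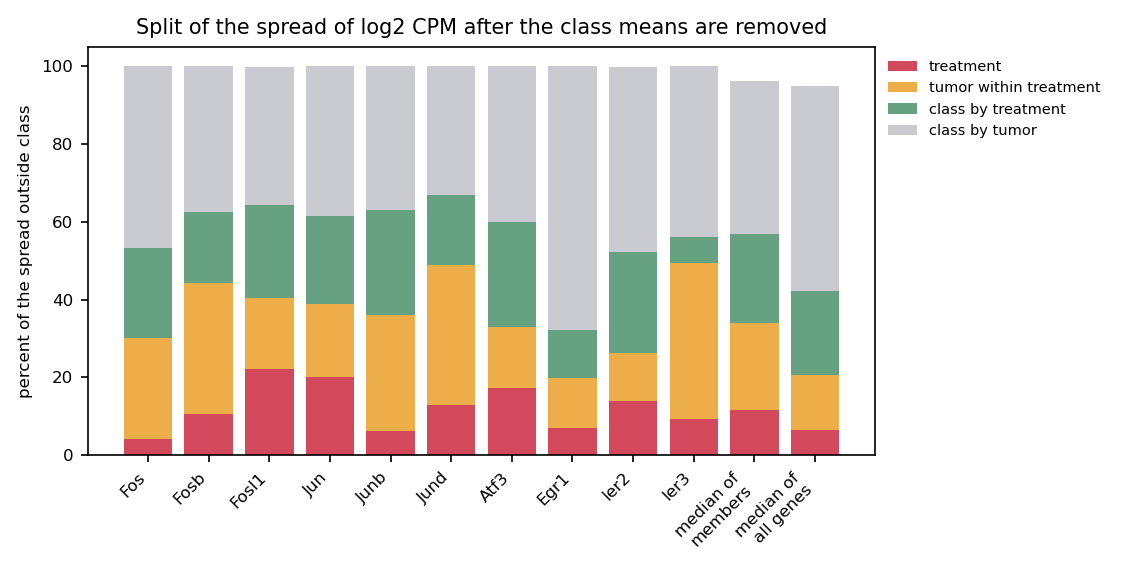
Split of the spread that remains after class means are removed. The bars give, for each member and for the medians, the percent of the remaining sum of squares of log2 CPM that went with treatment (red), tumor within treatment (orange), class by treatment (green) and class by tumor (grey). Treatment and tumor together reached 49.4% for Ier3 and 19.9% for Egr1, and the bars of medians need not add up to 100.

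Medium R848-BPD tumor 2 was above the class mean in all 5 classes, and no other tumor was on 1 side in all 5 classes. The mean deviation of the 10 members over 5 classes was -0.49, -0.11 and 0.09 log2 units in free R848 tumors 1 to 3, -0.21 and 0.58 in medium R848-BPD tumors 1 and 2, and 0.13, 0.01 and 0.00 in saline tumors 1 to 3. The members lay above their class mean in 12, 30 and 34 of 50 cases in free R848 tumors 1 to 3, in 15 and 33 in medium R848-BPD tumors 1 and 2, and in 24, 29 and 21 in saline tumors 1 to 3. By that count medium R848-BPD tumor 2 did not stand apart. Classes of a tumor could go opposite ways. In saline tumor 2, the mean deviation was -0.41 in monocyte/macrophage-like cells, with 0 of 10 members above the class mean, and 0.35 in NK-like cells, with 10 of 10 above it. In saline tumor 3 it was 0.42 in monocyte/macrophage-like and -0.35 in MC38-like cells, where 0 of 10 members were above. In medium R848-BPD tumor 2 it was 1.34 in NK-like, 0.74 in T-like and 0.69 in DC-like cells, but 0.10 in monocyte/macrophage-like and 0.05 in MC38-like cells. Median mitochondrial shares ran from 3.21% to 5.44% of UMIs over the tumors, and the tumor with the highest share, free R848 tumor 3, had a mean deviation of 0.09. The part of dissociation in these deviations was not tested.

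**Figure D3:**
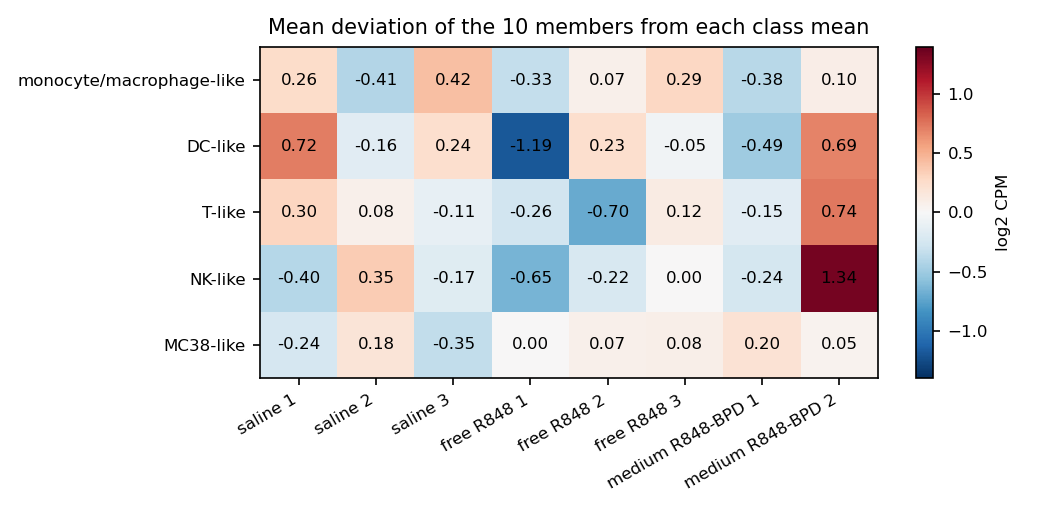
Mean deviation of the 10 members from the class mean, in log2 CPM, for each class (lines) and tumor (columns), with red for above and blue for below. The column of medium R848-BPD tumor 2 is above 0 throughout, and its largest value is 1.34 in NK-like cells of medium R848-BPD tumor 2.

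The treatments were compared within each class over tumors, with edgeR's quasi-likelihood test and Benjamini-Hochberg adjustment over all genes tested. Of 46 pairs of member and class that passed the filter on low counts, 1 was called for medium R848-BPD against free R848, 0 for free R848 against saline and 0 for medium R848-BPD against saline. At an unadjusted p under 0.05 there were 10, 5 and 9 (21.7%, 10.9% and 19.6% of the pairs, against 11.7%, 8.85% and 16.9% over all genes), and DESeq2 called 1, 0 and 0 with 7, 3 and 7 at that level. The 4 pairs not tested were Fosl1 in T-like, DC-like and NK-like cells and Ier3 in T-like cells. For medium R848-BPD against free R848, all genes were called at 1.59% in monocyte/macrophage-like, 1.02% in MC38-like, 0.357% in NK-like, 0.184% in DC-like and 0.0728% in T-like cells. For medium R848-BPD against saline the shares were 7.6%, 3.26%, 0.917%, 7.99% and 0.0546% in the same order, and for free R848 against saline 0.0186%, 0.0864%, 0%, 0.737% and 0%. In the 2 classes at 0%, 235 genes (T-like) and 394 genes (NK-like) were at an unadjusted p under 0.05. The members' counts are to be read against these shares.

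**Figure D4:**
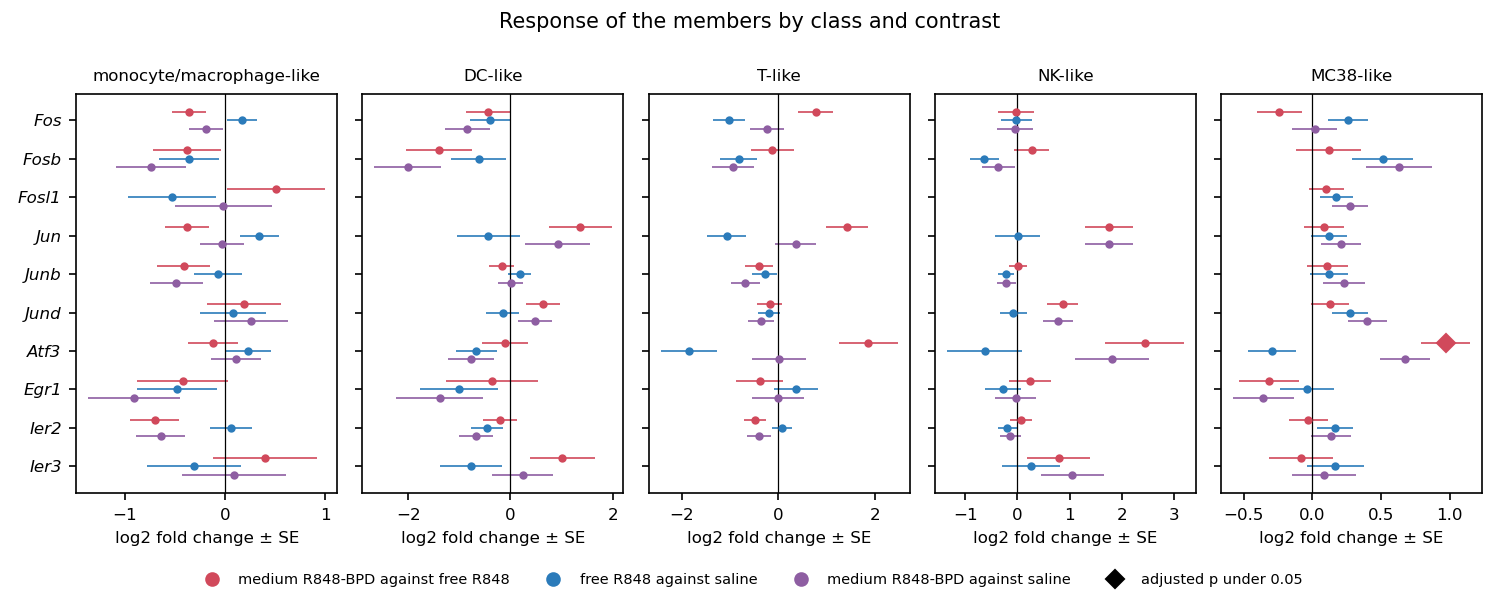
Log2 fold changes of the members in each class, with 1 SE, for medium R848-BPD against free R848 (red), free R848 against saline (blue) and medium R848-BPD against saline (purple). A diamond marks an adjusted p under 0.05, which was reached by Atf3 in MC38-like cells for medium R848-BPD against free R848 (0.97), and members that did not pass the filter on low counts have no point.

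The called gene was Atf3 in MC38-like cells. It was at 73.4 and 62.6 CPM in the 2 medium R848-BPD tumors, at 28.9, 37.4 and 38.5 CPM in the 3 free R848 tumors, and at 35.6, 47.2 and 41.6 CPM in the 3 saline tumors. Both prodrug tumors were above all 6 others. Against free R848 the log2 fold change was 0.97 ± 0.18 (SE, adjusted p = 0.0211), and against saline it was 0.67 ± 0.18 (adjusted p = 0.0557). The call was lost without free R848 tumor 1 (0.83, adjusted p = 0.112), free R848 tumor 3 (1.03, adjusted p = 0.0530) or medium R848-BPD tumor 2 (1.10, adjusted p = 0.113), and with the same number of cells per tumor (0.39, adjusted p = 0.683). The carried share of monocyte/macrophage RNA came to 4.29 and 4.34 CPM in the prodrug tumors and 7.21 to 16.4 CPM in the other 6, and its part in the difference was not tested. After thinning, Atf3 was detected in 5.81% and 5.42% of MC38-like cells of the prodrug tumors, 1.03% to 3.51% in free R848 tumors and 2.56% to 8.93% in saline tumors, so these shares overlapped with saline. The other members of MC38-like cells had log2 fold changes from -0.31 (Egr1) to 0.12 (Jund) against free R848 and a median of 0.09 over the 10 members (all genes -0.01). Against saline, 9 of 10 members lay above 0, with a median of 0.22 (all genes 0.00), among them Fosb at 0.63 ± 0.24 (adjusted p = 0.191) and Jund at 0.40 ± 0.14 (adjusted p = 0.151). Jund was at 255 and 228 CPM with the prodrug and at 163, 203 and 175 CPM with saline, without overlap.

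In monocyte/macrophage-like cells, the class with most Fos and Atf3 among the 5, no member passed the test. Ier2 came nearest. It was at 128 and 135 CPM with medium R848-BPD, at 210, 190 and 242 CPM with free R848, and at 256, 137 and 224 CPM with saline. The prodrug tumors were below all others, with saline tumor 2 next to them. The log2 fold change was -0.70 ± 0.24 against free R848 (adjusted p = 0.222) and -0.64 ± 0.24 against saline (adjusted p = 0.144). Fos was at 957 and 1275 CPM with the prodrug against 1288 to 1538 CPM with free R848, a difference of -0.36 ± 0.17 (adjusted p = 0.382). Atf3 was at 558 and 745 CPM against 507 to 871 CPM, a difference of -0.12 ± 0.25 (adjusted p = 0.884). The median over 10 members was -0.37 against free R848 (all genes -0.01) and -0.11 against saline (all genes -0.01).

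In DC-like cells, Fosb was at 146 and 75.4 CPM with medium R848-BPD, at 24.7, 398 and 492 CPM with free R848, and at 620, 355 and 380 CPM with saline. The prodrug tumors lay below all saline tumors and inside the free R848 range. Against saline the difference was -2.01 ± 0.65 (adjusted p = 0.0680), and it was called in 5 of 18 alternatives, among them without free R848 tumor 1 (adjusted p = 0.000861) and in a fit of the 2 groups alone (adjusted p = 0.00256). Jun in DC-like cells was at 326 and 960 CPM with the prodrug, at 370, 286 and 92.5 CPM with free R848, and at 184, 899 and 166 CPM with saline, and the ranges overlapped. A few cells set the high values: in saline tumor 2, 42 of 43 Jun UMIs were in 1 cell, without which the level would be 22.8 CPM (10 cells in the sum), and in medium R848-BPD tumor 2, 71.7% of 191 Jun UMIs were in 5 of 48 cells. The MC38 markers in DC-like cells of that prodrug tumor were at 5.81% of their MC38-like level, against 1.02% to 2.37% in the other 7 tumors, a share that would carry 98.1 CPM of Jun and 13.2 CPM of Jund. Its part in these levels was not tested.

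In T-like cells, Jun was at 208 and 344 CPM with medium R848-BPD, at 79.7, 74.9 and 144 CPM with free R848, and at 343, 134 and 118 CPM with saline. The prodrug and free R848 tumors did not overlap, and saline spanned both. Jun differed by 1.42 ± 0.43 between medium R848-BPD and free R848 (adjusted p = 0.444) and by -1.06 ± 0.40 between free R848 and saline (adjusted p = 0.975). In the free R848 tumors the MC38 share would carry 66.5, 74.0 and 62.7 CPM of Jun and the monocyte/macrophage share 25.4, 39.3 and 29.6 CPM. Together these came to more than the Jun level of free R848 tumors 1 and 2, so the size of the Jun fold against this group is uncertain. In the prodrug tumors both shares together came to 89.6 and 96.96 CPM, below the levels measured. Atf3 and Fos were also at their lowest with free R848, where Atf3 ran from 0 to 54.9 CPM and Fos from 73.3 to 99.9 CPM, below both other groups. In free R848 tumors 1 and 2 both genes were at or under the carried monocyte/macrophage share, so the size of their folds against this group is uncertain too. Medium R848-BPD and saline overlapped for both genes. The differences between medium R848-BPD and free R848 were 1.86 ± 0.61 for Atf3 (adjusted p = 0.504) and 0.78 ± 0.36 for Fos (adjusted p = 0.765), on sums of 44 and 14 Atf3 UMIs in the 2 prodrug tumors. None of these differences passed the test.

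NK-like cells showed the widest apparent changes, and they came from 1 tumor. Jun was at 113 and 605 CPM in medium R848-BPD tumors 1 and 2, at 91.0, 84.4 and 101 CPM with free R848, and at 71.6, 141 and 68.3 CPM with saline. Atf3 was at 28.8 and 399 CPM, at 25.7, 25.8 and 41.9 CPM, and at 24.9, 88.9 and 35.5 CPM in the same groups. Jund was at 273 and 736 CPM, at 196, 280 and 303 CPM, and at 239, 323 and 260 CPM. The first prodrug tumor lay inside or near the range of the other 6 in each case and the second far above them. Against free R848 the log2 fold changes were 1.75 ± 0.46 for Jun (adjusted p = 0.133), 2.43 ± 0.75 for Atf3 (adjusted p = 0.254) and 0.86 ± 0.29 for Jund (adjusted p = 0.326). Atf3 was under the carried monocyte/macrophage share in all 3 free R848 tumors and in medium R848-BPD tumor 1, so the size of its fold is uncertain. Both shares together would carry 86.6, 72.5 and 89.0 CPM of Jun in the 3 free R848 tumors, 85.9% to 95.2% of the levels there, so the size of the Jun fold is uncertain too. Without medium R848-BPD tumor 2 the 3 fold changes were 0.31, -0.06 and 0.08, and without tumor 1 they were 2.71, 3.71 and 1.49, all 3 then past the threshold. That last fit holds 1 prodrug tumor, assumed to vary like those of the other groups.

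That tumor gave 50 NK-like cells, and its UMIs were uneven between them. A single cell with 17945 UMIs, against a median of 4790, held 72 of 104 Atf3 UMIs, 59 of 158 Jun UMIs, 24 of 192 Jund UMIs and 193 UMIs of the members in all. Without it the levels would be 132 CPM for Atf3, 407 CPM for Jun and 691 CPM for Jund. Jund was in 41 of the 50 cells and Jun in 31. The MC38 markers in these NK-like cells were at 4.24% of their MC38-like level, against 1.76% to 3.29% in NK-like cells of the other tumors, and that share would carry 71.6 CPM of Jun, 2.66 CPM of Atf3 and 9.65 CPM of Jund. Heat shock genes summed to 9472 CPM in these cells, against 5389 to 7281 CPM in the other 7 tumors. Whether doublets, dissociation or treatment had a part was not tested, and with 2 prodrug tumors a tumor and a treatment effect cannot be told apart here.

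**Figure D5:**
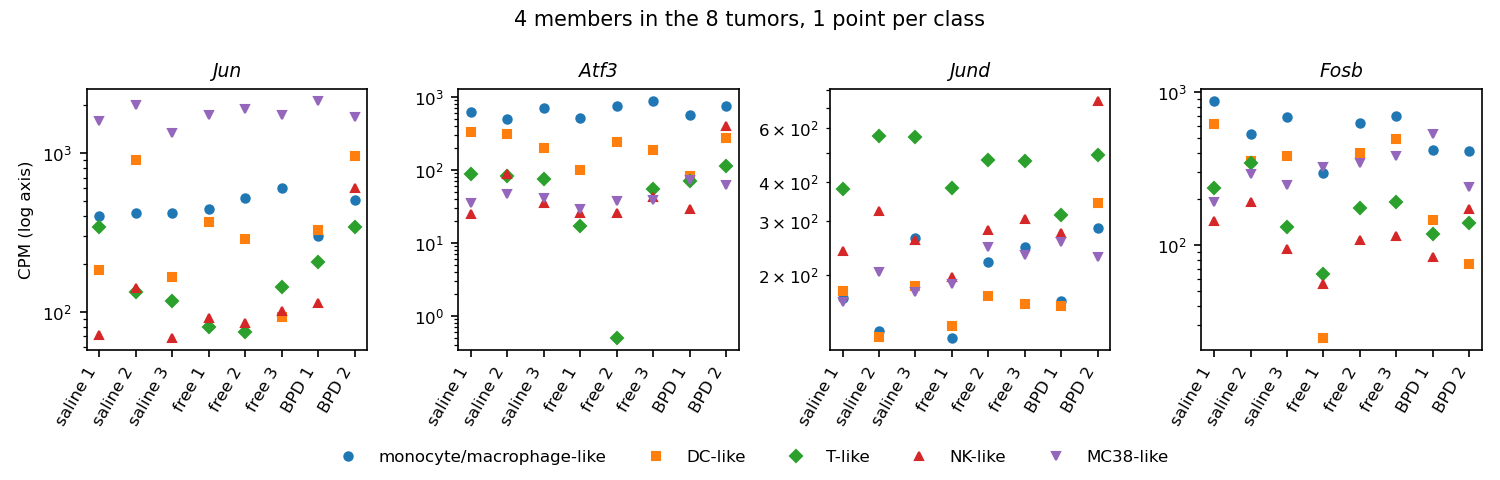
Jun, Atf3, Jund and Fosb in the 8 tumors, 1 point per class, in CPM on a log axis, with a level of 0 drawn at 0.5 CPM. NK-like cells (red) stand out in medium R848-BPD tumor 2 for Jun, Atf3 and Jund, whereas MC38-like cells (purple) keep Jun between 1333 and 2125 CPM in every tumor.

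The class-by-treatment term of a joint fit asked whether a change differed between classes. In this fit a tumor block takes up any shift common to the cells of a tumor. The fit therefore does not test a change shared by all classes, and a term not called is no sign of one. For medium R848-BPD against saline, 1 member had a response that differed between classes, Fosb (adjusted p = 0.0400), where 5.84% of all genes did. Relative to monocyte/macrophage-like cells, the Fosb response was 1.38 in MC38-like, 0.40 in NK-like, -0.22 in T-like and -1.19 in DC-like cells, in log2 units. Within MC38-like cells alone, Fosb was at 531 and 242 CPM with the prodrug against 191, 292 and 248 CPM with saline, a difference of 0.63 ± 0.24 (adjusted p = 0.191). The call was lost in 7 of 15 alternatives, among them without medium R848-BPD tumor 1 (adjusted p = 0.248), without saline tumor 1 (adjusted p = 0.396) and with classes taken from clusters (adjusted p = 0.108). For medium R848-BPD against free R848, 0 members were called (0.731% of all genes) and 2 were at an unadjusted p under 0.05, namely Jun and Atf3. Their adjusted p-values by edgeR were 0.192 and 0.254. For free R848 against saline, 0 members were called (0.296% of all genes) and 1 was at an unadjusted p under 0.05, Fosb, at an adjusted p of 0.420 by edgeR.

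The share of cells with a UMI after thinning was also set side by side, over pairs of member and class with a mean share of at least 1%. The groups did not overlap in 14 of 48 pairs for medium R848-BPD against free R848 (23% of all pairs of gene and class), 6 of 48 for free R848 against saline (10.9%) and 15 of 48 for medium R848-BPD against saline (24%). These were 29.2%, 12.5% and 31.2% of the member pairs. With classes from clusters the counts were 10 of 48, 2 of 48 and 14 of 49 (20.8%, 4.17% and 28.6%, against 22.9%, 10.9% and 24% of all pairs), so the first 2 were then below the background. In monocyte/macrophage-like cells, 17.8% of 7761 genes were lower with the prodrug than with free R848 without overlap, and so were 5 of 10 members: Fos (55.5% against 62.2% of cells), Jun (27.6% against 34.97%), Junb (51.2% against 62.2%), Egr1 (8.58% against 12.7%) and Ier2 (11.2% against 19.5%). Jun was higher in DC-like cells (35.9% against 16.6%) and T-like cells (25.9% against 10.2%), the opposite direction to monocyte/macrophage-like cells. In DC-like cells Fosb was in 4.74% of cells with the prodrug and 28.2% with saline. With 2 or 3 tumors a group, an exact permutation test cannot pass 0.05, and none is given.

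Genes related to the members were taken from 5 lists, which were chosen with earlier results of these data known. Monocyte/macrophage-like cells spanned several clusters, and a changed mix of these cannot be told apart from a change in expression. Among 24 other early response genes, monocyte/macrophage-like cells had 0 higher and 5 lower of 23 tested for medium R848-BPD against saline, with a list median of -0.47 (all genes -0.01). Over all genes, in both directions, 7.6% were called there, 3.26% in MC38-like, 0.917% in NK-like and 7.99% in DC-like cells, and the list counts are to be read against these. The nuclear receptors Nr4a2 (46.6 ± 18.0 against 216 ± 98.6 CPM, log2 fold change -2.19, adjusted p = 0.0248) and Nr4a1 (127 ± 2.31 against 407 ± 173 CPM, -1.67, adjusted p = 0.0298), the small Maf protein Maff (29.7 ± 9.64 against 130 ± 66.8 CPM, -2.15, adjusted p = 0.0297) and the NF-kappa-B regulator Nfkbiz (533 ± 49.5 against 958 ± 225 CPM, -0.85, adjusted p = 0.0369) fell. These 4 calls were each lost in 5 to 8 of 18 alternatives. MC38-like cells had 6 higher and 0 lower of 23, with a list median of 0.40 (all genes 0.00), and Nfkbiz rose there (245 ± 40.7 against 129 ± 34.1 CPM, 0.84, adjusted p = 0.0299). NK-like cells had 1 higher and 3 lower of 22, among them Nr4a2 (-1.13, adjusted p = 0.00553) and Nr4a1 (-1.25, adjusted p = 0.0156). DC-like cells had 1 higher and 4 lower of 20, with Maff, Nr4a1 and Nr4a2 lower (-2.13, -2.20 and -1.78). T-like cells had 0 of 21 by edgeR. Against free R848, 2 of 23 were higher in MC38-like cells and Nr4a2 was lower in NK-like cells (106 ± 4.07 against 219 ± 27.7 CPM, -1.03, adjusted p = 0.0234).

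Among 17 other AP-1 and bZIP partners, Batf, a Jun partner of lymphoid and myeloid cells, rose in monocyte/macrophage-like cells to 76.0 ± 10.03 CPM (n = 2), from 46.3 ± 4.69 CPM with free R848 (n = 3, 0.72, adjusted p = 0.0393) and 29.9 ± 1.08 CPM with saline (1.35, adjusted p = 0.00174). Against saline, Maf rose (1.07, adjusted p = 0.00882) and Nfe2l2, the regulator of oxidative stress genes, fell (-0.58, adjusted p = 0.0469) in those cells, and Batf3 rose in NK-like cells from 3.55 ± 1.52 to 28.5 ± 7.85 CPM (3.15, adjusted p = 0.00329). Relative to monocyte/macrophage-like cells, the Batf response against free R848 was 1.98 log2 units in DC-like and 0.50 in MC38-like cells. It was -0.33 in NK-like and -1.05 in T-like cells. For all 5 classes together, 4 pairs of gene and class were called higher and 1 lower of the 69 partner pairs tested against saline. Against free R848, 2 were higher and 0 lower. Of the 15 upstream kinases and serum response factors, 0 of 71 pairs were called in any contrast by edgeR or DESeq2, with 1, 5 and 4 at an unadjusted p under 0.05 by edgeR (medium R848-BPD against free R848, free R848 against saline, medium R848-BPD against saline), and the abundant Map2k2 averaged 161 to 204 CPM across the 5 classes. The 14 heat shock genes, another readout of handling stress, had 1 of 61 pairs called, Dnajb4 in NK-like cells against saline (132 ± 18.6 against 73.5 ± 1.23 CPM, 0.79, adjusted p = 0.0442), and the call was lost in 14 of 18 alternatives.

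Among 12 textbook AP-1 targets, 0 of 36 pairs were higher and 2 lower against free R848, both in monocyte/macrophage-like cells. DESeq2 called 4 target pairs in that contrast, and 7 early response pairs where edgeR called 3. Ccnd1, a cyclin, went from 573 ± 55.8 to 201 ± 5.79 CPM (-1.52, adjusted p = 0.0201) and Plau, the urokinase gene, from 111 ± 19.2 to 24.1 ± 5.85 CPM (-2.23, adjusted p = 0.0128). Against saline, 1 of 36 target pairs was higher and 6 were lower by edgeR, and not all of these are described here. In that contrast Plau fell from 334 ± 95.5 CPM in monocyte/macrophage-like cells (-3.82, adjusted p = 0.000575). Its receptor Plaur fell there from 464 ± 208 to 167 ± 10.9 CPM (-1.47, adjusted p = 0.0457). In DC-like cells the cytokine Il6 rose from 15.4 ± 4.76 to 116 ± 20.3 CPM (3.02, adjusted p = 0.00220) and Ccnd1 fell (-2.78, adjusted p = 0.00610). Plau was listed at 0 in MC38-like cells of both prodrug tumors and at 1.73 to 12.04 CPM with saline. In free R848 against saline, edgeR called 0 pairs of any list, and DESeq2 called 1 bZIP pair and 1 target pair. By edgeR, 20 of 109 early response, 10 of 69 bZIP and 14 of 36 target pairs were at an unadjusted p under 0.05. So were 5 of 61 heat shock and 5 of 71 kinase pairs, and 8.85% of all pairs of gene and class.

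Of 4693 genes whose mean log2 CPM was 4 or more in every class, those whose deviations from the class means were most like the mean of the members over the 40 sums were Plk2 (Pearson r = 0.70), Cxcl10 (0.70), Lyn (0.68), R3hdm1 (0.67) and Cd14 (0.65). The members' own r with that mean ran from 0.22 for Junb to 0.82 for Ier3. The 40 sums share 8 tumors and their libraries, so these values describe likeness and carry no test.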

How the data were processed

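The authors deposited, for each of 8 tumors, a table of unnormalized UMI counts by gene symbol and cell barcode. The submitters' processing notes name bcl2fastq, and reads were aligned to mm10; the aligner and annotation are not given in the sources used here. Barcodes with 400 genes or fewer, 10000 genes or more, 50000 UMIs or more, or over 15% mitochondrial UMIs were left out. No doublet caller was run and no doublets were removed. A cell went to the class with the highest score (the mean of its 3 strongest scaled markers), if that was 0.3 or above and led the next class by 0.1. No member was a marker. Clusters, an alternative, used scikit-learn 1.9.0 and leidenalg 0.10.2.

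Counts were summed per tumor and class where at least 10 cells were present, and tested with edgeR 4.0.16 in R 4.3.3 (TMM, quasi-likelihood F test, Benjamini-Hochberg adjustment over all genes, 0.05), with all 3 treatments in the fit. Tumors, each from its own mouse, were the replicates. Levels between classes and class-by-treatment terms were fitted with tumor as a block. Cells were thinned to 1000 UMIs for shares. The members and lists were chosen with earlier results of these data known. All 10 members are named. From each list at most 4 genes are named, those called in most pairs of class and contrast, with ties broken by the larger change in monocyte/macrophage-like cells, or else the 2 most abundant; and the 5 genes most alike are named. A gene that this rule names is not reported here. Alternatives were RLE size factors, DESeq2 1.42.0, no filter on low counts, the compared groups alone, a replicate block, each tumor left out, a stricter gate, clusters, a mitochondrial limit of 10%, equal cells per tumor, 2000 UMIs or no thinning for shares, and a prior count of 0.5 for the split of the spread. Leaving out shared barcodes and scaling by total UMIs were chosen after seeing the data. On simulated counts with 200 genes changed by 1 log2 unit between medium R848-BPD and free R848, the test recovered 67.5% in MC38-like cells (10414 genes), 50% in monocyte/macrophage-like cells (10774), 43% in NK-like cells (8399), 17% in DC-like cells (4342) and 8.5% in T-like cells (5491).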

Additional observations from a re-analysis of the deposited data

Results flagged for a closer look

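Of 50 pairs of member and class, 9 had 1 tumor far from the other 7 (Dixon's test, critical value 0.526), where chance gives about 1 in 20. Among pairs that passed the filter on low counts, these were 6 of 46 members' pairs (13%) and 8.46% of all pairs of gene and class. In NK-like cells, 4 of 9 members and 4.35% of 8399 genes stood high in medium R848-BPD tumor 2. Of the 9 pairs, those of medium R848-BPD tumor 2 were Atf3 (398.5 CPM), Jun (605.5 CPM), Jund (735.8 CPM), Ier3 (115 CPM) and Fosl1 (22.99 CPM) in NK-like cells, Ier3 (147.5 CPM) and Fosl1 (32.78 CPM) in T-like cells, and Jund (341.6 CPM) in DC-like cells. The ninth pair was Junb in DC-like cells of free R848 tumor 2 (1379 CPM). At the share of MC38 markers in the NK-like cells of medium R848-BPD tumor 2, 31.8 CPM of Ier3 and 10.55 CPM of Fosl1 would be carried, and at the share of monocyte/macrophage markers 34.6 CPM of Ier3. In its T-like cells these values were 26.7, 8.86 and 46.4 CPM. Their part was not tested. The T-like sum of this tumor holds 23 cells and the NK-like sum 50.

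The response to treatment differed between classes by edgeR's class-by-treatment term for Fosb in medium R848-BPD against saline (adjusted p = 0.04). Among the related genes named above, it differed against saline for Maff (adjusted p = 0.00227), Maf (adjusted p = 0.00674), Batf3 (adjusted p = 0.0155), Nr4a2 (adjusted p = 0.0209), Batf (adjusted p = 0.0257) and Plaur (adjusted p = 0.0308), and against free R848 for Batf (adjusted p = 0.0331) and Plaur (adjusted p = 0.0442).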

How the results depend on the processing

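Without the filter on low counts, members called for medium R848-BPD against free R848 became 3 in NK-like cells, 2 in both DC-like and T-like cells and 1 in monocyte/macrophage-like cells, and 2 by the class-by-treatment term. For medium R848-BPD against saline they became 3 in NK-like, 2 in DC-like, 3 in monocyte/macrophage-like and 3 in MC38-like cells and 4 by that term, with 0 in T-like cells, and for free R848 against saline 1 in T-like cells, 1 in MC38-like cells and 4 by the term. More of all genes were called too. For medium R848-BPD against free R848 their share in MC38-like cells was 3.12%, against 1.02% with the filter. It was 4.38% (monocyte/macrophage-like), 0.9% (NK-like), 0.757% (T-like) and 0.52% (DC-like) elsewhere. Against saline it was 8.52% (monocyte/macrophage-like), 4.25% (MC38-like), 1.28% (NK-like) and 3.94% (DC-like, 7.99% with the filter). For free R848 against saline it was 0.924% (MC38-like) and 0.294% (T-like). Counts by the term and under the other alternatives are given without such shares and call nothing particular to the members. In a fit of the compared groups alone, 1 member was called in monocyte/macrophage-like cells (medium R848-BPD against free R848) and 1 in DC-like cells (against saline). Against saline, the stricter gate called 2 members in DC-like and 1 in MC38-like cells, the mitochondrial limit of 10% called 2 in DC-like cells, and classes from clusters left 0 by the term. The Atf3 call in MC38-like cells became 0 calls with equal cells per tumor. With the replicate block it was also 0 (1.00, adjusted p = 0.0541); same-numbered tumors correlated at -0.24 to 0.23, so the numbers do not pair them. Leaving out 1 tumor at a time gave, for medium R848-BPD against free R848, 0 to 1 calls in monocyte/macrophage-like, DC-like and MC38-like cells, 0 to 4 in NK-like cells and 0 to 1 by the term. Against saline it gave 0 to 2, 0 to 1, 0 to 4 and 0 to 1 calls in monocyte/macrophage-like, DC-like, NK-like and MC38-like cells and 0 to 4 by the term. The 4 calls in NK-like cells came without medium R848-BPD tumor 1, and saline tumor 2 left out gave the 2 in monocyte/macrophage-like cells and the 4 by the term. That term called 0 without saline tumors 1 or 3, free R848 tumors 2 or 3, or medium R848-BPD tumor 2. Pairs of member and class whose shares of cells did not overlap numbered 10 to 17 over the alternatives for medium R848-BPD against free R848 (14 as reported), 2 to 5 for free R848 against saline (6) and 12 to 16 for medium R848-BPD against saline (15). The median part of the spread shared by a tumor's classes ranged from 25.83% (without medium R848-BPD tumor 2) to 41.46%. The difference of Atf3 in NK-like cells ran from -0.0599 (without medium R848-BPD tumor 2, adjusted p = 0.995) to 3.71 (without tumor 1). The causes were not tested. Sums held 23 to 95 T-like, 10 to 93 DC-like and 50 to 213 NK-like cells.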
